A study of Mus musculus with 6 samples.

Results

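Polycomb repressive complex 2 (PRC2) was described here through the transcripts of 10 of its subunit genes in mouse intestinal crypt stem cells. The 10 genes were taken by name from the 28752 genes of the deposited table: the catalytic subunits Ezh2 and Ezh1, the core subunits Eed and Suz12, the histone chaperones Rbbp4 and Rbbp7, and the accessory subunits Jarid2, Aebp2, Mtf2 and Phf19. Ezh2 is also the host gene of circEZH2_005, the circular RNA that was overexpressed. Lgr5-positive intestinal stem cells (ISCs) of Lgr5-green fluorescent protein (Lgr5-GFP) mice, labelled WT, were grown as crypt-villus organoids and infected with the vector (n = 3) or with an adenovirus carrying circEZH2_005 (n = 3). All 6 samples received hypoxia/reoxygenation (H/R) after 72 h of infection, with 4 h at 2% O2, so no sample kept in normal oxygen enters any comparison below. The age that the methods state for laboratory mice in general is not tied there to the Lgr5-GFP mice, and the length of reoxygenation of the organoids is not given in the sources used here. The study describes its replicates as biological, without saying whether these samples came from separate mice or separate cultures of the same mice, so the p-values measure the spread between these samples.

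PRC2 places methyl groups on lysine 27 of histone H3, a mark of silenced genes. Ezh2 or Ezh1 carries the methyltransferase domain, Eed binds the finished mark and stimulates the enzyme, Suz12 holds the complex together, and Rbbp4 or Rbbp7 contacts the histone. Ezh2 is the form usual in dividing cells, whereas Ezh1 is the form better known from resting and differentiated cells. Accessory subunits define a pair of subtypes: Phf19 and Mtf2 are Polycomb-like proteins of PRC2.1, and Jarid2 and Aebp2 belong to PRC2.2. In the intestinal crypt, PRC2 is known for keeping cell cycle inhibitors such as Cdkn2a silent in dividing cells.

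The circular RNA and the Ezh2 messenger share sequence, and the shared stretch is shown because a read that lies wholly inside it cannot be told apart by source. The circle joins exons 2 and 3 of Ezh2. In transcript Ezh2-201 of GENCODE M21 (GRCm38, minus strand), exon 2 spans chr6:47577544-47577667 and exon 3 spans chr6:47576536-47576664. Their sequences follow, 5′ to 3′, with the start codon of Ezh2 in capitals, and then 30 bases across the junction at which the circle closes, with the end of exon 3 in lower case and the start of exon 2 in capitals.
Ezh2 exon 2: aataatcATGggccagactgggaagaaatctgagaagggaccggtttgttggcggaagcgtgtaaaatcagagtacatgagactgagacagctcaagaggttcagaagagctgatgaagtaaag
Ezh2 exon 3: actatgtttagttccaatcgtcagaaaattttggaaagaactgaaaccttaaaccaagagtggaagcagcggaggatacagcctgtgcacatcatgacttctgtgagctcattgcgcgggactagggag
junction: cgcgggactagggagAATAATCATGGGCCA
With 124 and 129 bases, both exons together make 253 bases, or 9.08% of the 2787 bases of Ezh2-201, which has 20 exons. The study's text places the circle on a different chromosome, whereas the deposited table and GENCODE M21 both place mouse Ezh2 on the chromosome printed here, so the exons and the junction are those of the annotated gene and were not checked against the circle itself. The exact ends of the overexpressed insert are not given in the sources used here. A circle has no poly(A) tail and the libraries were made with oligo(dT) beads, and the table lists genes, so the level of the circle was not analysed here.

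The samples held between 71506487 and 79919893 counts. The cultured cells carried epithelial RNA throughout. Their 7 epithelial markers summed to between 7638 and 11524 CPM, which are counts divided by the TMM-scaled library size. The 9 crypt stem cell markers summed to between 2051 and 2904 CPM in vector samples and between 1403 and 2038 CPM in circEZH2_005 samples, and none of them was at 0. Most of each sum was Olfm4, whose groups overlapped. It had 1447, 2314 and 1511 CPM in vector samples 1 to 3 and 1383, 1003 and 1565 CPM in circEZH2_005 samples 1 to 3. Of the 9, Lgr5 (log2 fold change -0.88, adjusted p = 0.0434) and Smoc2 (-0.81, adjusted p = 0.0203) were lower in circEZH2_005 samples by edgeR's quasi-likelihood test. The other 7 stem cell markers did not pass, and 2 of the 9, Axin2 (0.31) and Rnf43 (0.32), had log2 fold changes above 0. The median of the 9 was -0.58. Of the 9, 5 were lower in every circEZH2_005 sample than in any vector sample, beside 14.2% of all genes tested. In the other direction 0 of 9 were apart. Of all 18348 genes tested, 3.67% passed the adjusted test. In the lists of other cell types, Krt8 (0.57, epithelium), Apoa4 (0.91, enterocyte), Clca1 (0.76, goblet) and Pecam1 (1.93, endothelium) were higher and Neurog3 (-1.11, enteroendocrine) was lower by log2 fold change, and 0 Paneth, tuft, B cell, myeloid and fibroblast markers passed. Within the enterocyte, goblet and enteroendocrine lists the markers did not all point the way of the called gene: among those that did not pass, Fabp1 (-0.37) and Sis (-0.29) of the enterocyte list and Spink4 (-0.28) of the goblet list were below 0, and the enteroendocrine Chga (0.36) was above 0. Beside Pecam1, the endothelial Cdh5 and Kdr were under the count filter, at 0 to 0.243 CPM, and Vwf (0.57) did not pass. The 7 calls rest on few samples: all were lost without vector sample 1 or 3 (adjusted p between 0.0976 and 0.166 from edgeR) or without circEZH2_005 sample 2 or 3 (between 0.052 and 0.128), and all were kept without vector sample 2. The 5 T cell markers summed to between 31.3 and 103 CPM in vector samples and between 156 and 250 CPM in circEZH2_005 samples. Of the 5, 0 passed the adjusted test. All 5 were higher in every circEZH2_005 sample than in any vector sample, beside 16.4% of all genes tested. So were 5 of 7 epithelial, 4 of 7 enterocyte, 2 of 5 B and plasma cell, 2 of 5 goblet, 1 of 4 enteroendocrine and 1 of 2 tested endothelial markers. The groups were apart the other way for 1 of 5 goblet, 2 of 4 enteroendocrine and 1 of 5 Paneth markers, beside 14.2% of all genes tested. All 5 Paneth markers had log2 fold changes below 0 (median -0.60). Vector sample 2 had the highest T cell sum of the vector group, and its log2 CPM correlated with those of the circEZH2_005 samples at between 0.965 and 0.971, close to its correlation with the other vector samples, at 0.970. In such bulk samples fewer cells of a type and less RNA per cell cannot be told apart.

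Compared per length, the subunit genes spanned a wide range of levels in the crypt cells. Rbbp7 stood highest, with a mean of 65.8 FPKM (fragments scaled for exon length and library size) over the 6 samples and a range of 53.9 to 75.3. Suz12 followed with 27.3 FPKM (23.2 to 31.6). The ranges of these genes did not overlap, and Suz12 was also clear of Rbbp4, which had a mean of 13.3 FPKM (10.3 to 15.0). Eed (11.1), Ezh2 (8.89), Aebp2 (6.71), Mtf2 (5.82), Jarid2 (5.44) and Ezh1 (4.72) came next in mean FPKM, and neighbours from Rbbp4 to Ezh1 overlapped in range. Within a sample the order held more tightly, since each gene lay above the next in 6 of 6 samples, apart from Mtf2 above Jarid2, which held in 5 of 6. Phf19 was far below, with a mean of 0.482 FPKM (0.286 to 0.863), and its range was clear of that of Ezh1. Among the 18348 genes tested, mean FPKM placed Rbbp7 at percentile 96.1, Ezh2 at 74.3, Ezh1 at 61.8 and Phf19 at 28.0. The order of the 10 genes was the same on TPM and on counts per kilobase of annotated exon. TPM only rescales FPKM within a sample, and those counts tracked the deposited FPKM closely, so neither is a separate check of the order. Those counts were divided by all annotated exon bases of a gene, 6678 for Ezh2 and 3828 for Eed. Their longest coding transcripts have 2787 and 2067 bases. The order of close genes and the size of ratios between genes depend on this length. An order by transcript length was not computed.

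**Figure D1:**
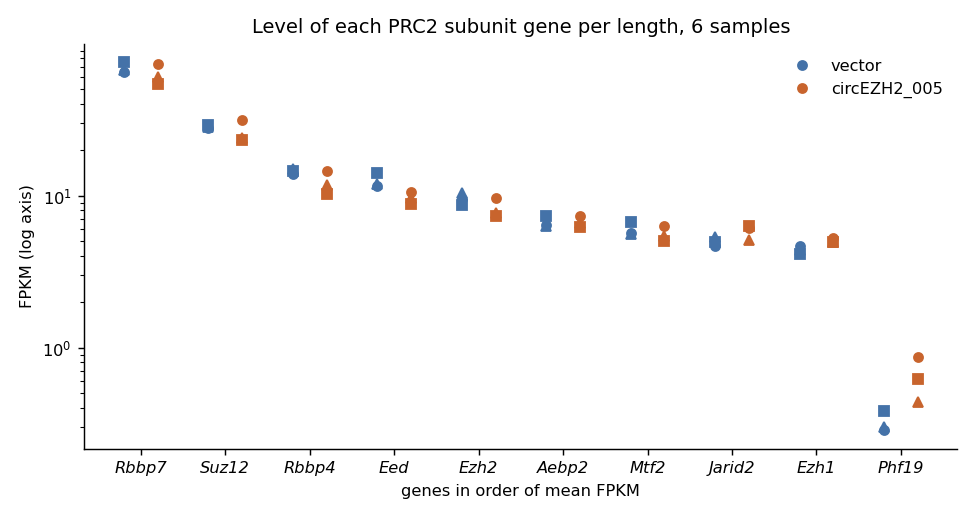
FPKM of the 10 PRC2 subunit genes in each sample on a log axis, in order of their mean, with vector samples in blue and circEZH2_005 samples in orange (circle, square and triangle for replicates 1, 2 and 3). Rbbp7 and Suz12 stand above the other 8 genes, and Phf19, at 0.286 to 0.863 FPKM, stands below them.

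With circEZH2_005 overexpressed, no subunit gene passed the adjusted test. With the threshold at an adjusted p-value of 0.05 across the whole table, 0 of the 10 genes were called by edgeR's quasi-likelihood test, where 3.67% of the 18348 genes tested were called, 2.69% as higher and 0.986% as lower. That background depends on which samples are included. The 674 genes called became 28 and 33 without vector sample 1 or 3, and 1432 without vector sample 2. They became 681, 68 and 169 without circEZH2_005 sample 1, 2 or 3. In each case 0 members were called. Before adjustment, 4 of 10 had a p-value under 0.05 (Ezh1, Jarid2, Phf19 and Eed), beside 23.7% of all genes tested. The same 4 genes were those whose groups did not overlap on CPM, beside 30.6% of all genes: Ezh1, Jarid2 and Phf19 lay higher in every circEZH2_005 sample than in any vector sample (16.4% of all genes did), and Eed lay lower (14.2% did). On the deposited FPKM, which were scaled differently, the groups of 3 of the 10 stayed apart, beside 30.9% of all genes, because the Jarid2 values then overlapped. DESeq2 called 1 of 10, Phf19, with 13.9% of the 16459 genes to which it gave an adjusted p-value. The median absolute log2 fold change was 0.144 over the 10 genes, 0.172 over genes whose mean reached 4 FPKM and 0.250 over all genes tested.

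**Figure D2:**
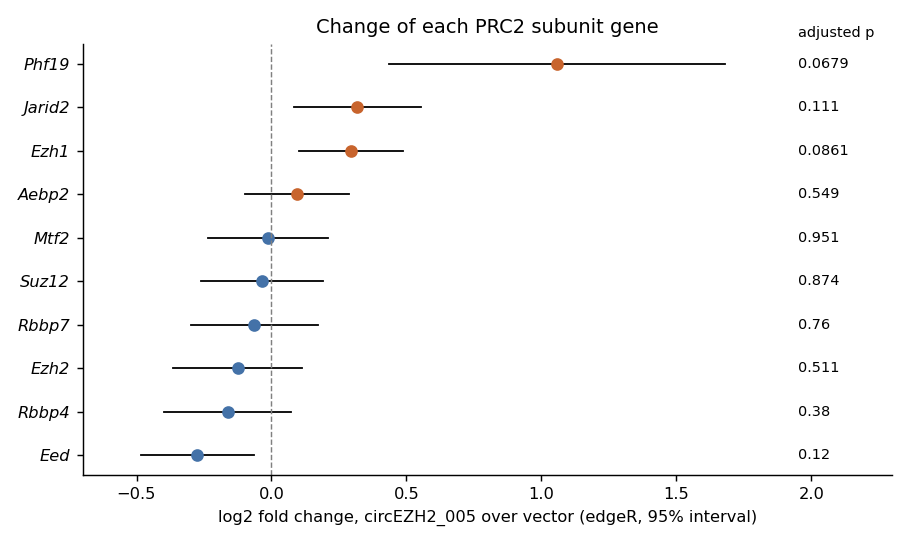
Log2 fold change of each subunit gene, circEZH2_005 over vector, from edgeR, with the 95% interval as a line and the adjusted p-value at the right. The intervals of Phf19, Jarid2 and Ezh1 lie above 0 and that of Eed lies below 0, while no adjusted p-value is under 0.05.

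Ezh2, the catalytic subunit and the host gene of the circle, was not called in either direction. It had 69.9, 62.0 and 74.6 CPM in the vector samples, given in the order of replicates 1 to 3 here and for every gene below, and 69.6, 58.9 and 60.8 CPM in the circEZH2_005 samples. The groups overlapped, with circEZH2_005 sample 1 close to vector sample 1 and the other circEZH2_005 samples below every vector sample. The log2 fold change was -0.13 (SE 0.10, 95% interval -0.36 to 0.11), so the data allow a change from 0.778-fold to 1.08-fold. The same log2 fold change lay between -0.21 and -0.07 under the alternative fits.

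Ezh1, the alternative catalytic subunit, showed the tightest circEZH2_005 group of the enzymes. It had 38.0, 32.8 and 35.1 CPM in the vector samples and 42.0, 44.2 and 43.6 CPM in the circEZH2_005 samples. Every circEZH2_005 sample lay above every vector sample, by a mean factor of 1.23. The log2 fold change was 0.29 (SE 0.08, 95% interval 0.10 to 0.49), with an adjusted p-value of 0.0861 from edgeR, which did not pass the threshold. None of its 50-base windows is shared with another gene in the annotation.

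The ratio of both enzymes within a sample does not depend on how the libraries are scaled. Ezh1 to Ezh2 stood at 0.487, 0.475 and 0.422 in the vector group, on FPKM, and at 0.542, 0.674 and 0.643 in the circEZH2_005 group. The groups did not overlap, with means of 0.461 ± 0.034 and 0.620 ± 0.069 (SD, n = 3 each). How often ratios of other gene pairs keep the groups apart was not computed, here or for the ratios below. A two-sided exact permutation test gave p = 0.1, the smallest that 3 samples against 3 can give. Ezh2 was the more abundant enzyme transcript in all 6 samples.

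Neither core subunit, Eed or Suz12, passed the adjusted test. Eed, the reader of the mark, had 48.5, 57.4 and 49.5 CPM in the vector samples and 43.8, 40.8 and 43.8 CPM in the circEZH2_005 samples. It was the only subunit gene with every circEZH2_005 sample below every vector sample, at a log2 fold change of -0.28 (SE 0.09, 95% interval -0.49 to -0.07, adjusted p = 0.120 from edgeR). Suz12, the scaffold, had 152, 153 and 150.1 CPM in the vector samples and 168, 137 and 139 CPM in the circEZH2_005 samples. Its vector samples were almost equal while its circEZH2_005 samples lay on both sides of them. Its log2 fold change was -0.03 (SE 0.10, 95% interval -0.26 to 0.19). Suz12 to Eed was 2.28 ± 0.19 in vector samples and 2.68 ± 0.26 in circEZH2_005 samples (FPKM ratios, SD, n = 3); the groups did not overlap, by a narrow margin (2.43 against 2.46), and the difference was not tested. Eed to the sum of Ezh1 and Ezh2 was 0.907 ± 0.162 in vector samples and 0.732 ± 0.028 in circEZH2_005 samples, also without overlap and without a test, and the spread of the vector group came from sample 2, at 1.09.

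Rbbp4 and Rbbp7, which serve in other chromatin complexes as well, spread more widely among circEZH2_005 samples than among vector samples. Rbbp4 had 133, 136 and 141 CPM in the vector samples and 137, 108 and 121 CPM in the circEZH2_005 samples, a log2 fold change of -0.16 (SE 0.10). Rbbp7 had 209, 234 and 209 CPM against 230, 188 and 206 CPM, a log2 fold change of -0.06 (SE 0.10). The groups overlapped for both genes, and circEZH2_005 sample 2 was the lowest of the 6 samples for both genes. They share the most sequence with other genes, so that their counts are less certain: 33.8% of the 50-base windows of Rbbp4 and 15.1% of those of Rbbp7 also occur in other annotated transcripts, among them those of Sync and Gm26722 for Rbbp4 and of Txlng and Gm6382 for Rbbp7. Sync had between 34 and 65 counts in the 6 samples, beside 8022 to 11044 for Rbbp4. How far shared sequence moved the counts was not tested.

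Phf19, a Polycomb-like subunit of PRC2.1 that reads lysine 36 of histone H3, had the largest fold difference of the 10 genes and the lowest level. Its counts were 115, 155 and 129 in the vector samples and 373, 280 and 187 in the circEZH2_005 samples. On the CPM scale these are 1.59, 2.07 and 1.65 against 4.69, 3.76 and 2.61. The groups did not overlap, and the circEZH2_005 group was the more variable, with an SD of 1.04 CPM against 0.265 CPM. The log2 fold change was 1.06 (SE 0.27, 95% interval 0.44 to 1.68), or 2.08-fold, with an adjusted p-value of 0.0679 from edgeR and of 0.00762 from DESeq2. Over the alternative fits the log2 fold change lay between 0.85 and 1.25 and the adjusted p-value between 0.00762 and 0.214.

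The summed T cell markers followed the same order as Phf19 over the 6 samples. From the lowest to the highest Phf19 level, the sums were 31.3 and 33.1 CPM in vector samples 1 and 3, 103 CPM in vector sample 2, and 156, 214 and 250 CPM in circEZH2_005 samples 3, 2 and 1. Of the 18348 genes tested, 387 (2.11%) had this order, and Phf19 was the only 1 of the 10 subunit genes among them. These 387 all lie among the 3002 genes higher in every circEZH2_005 sample than in any vector sample, since this order requires it. That class holds 3 of the 10 subunit genes. Summed B and plasma cell markers lay between 7.54 and 15.0 CPM in vector samples and between 14.4 and 64.9 CPM in circEZH2_005 samples, and myeloid markers between 27.8 and 35.1 and between 33.1 and 48.8 CPM. In the study's methods, Lgr5-GFP cells were sorted by fluorescence before they were grown into organoids. RNA of the T cell markers was counted in all 6 samples. The part of T, B and myeloid cells in the Phf19 level was not tested.

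Mtf2, the other Polycomb-like subunit among the members, did not separate the groups. It had 35.5, 41.2 and 34.7 CPM in the vector samples and 38.9, 34.7 and 36.7 CPM in the circEZH2_005 samples, with overlapping groups and a log2 fold change of -0.01 (SE 0.10, 95% interval -0.24 to 0.21). Phf19 to Mtf2 was 0.0535 ± 0.0031 in vector samples and 0.113 ± 0.029 in circEZH2_005 samples (FPKM ratios, SD, n = 3). The groups did not overlap, and the difference was not tested. Mtf2 was the more abundant Polycomb-like transcript in all 6 samples.

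Of the PRC2.2 subunits, Jarid2 lay higher with the circle on CPM and Aebp2 did not separate the groups. Jarid2, a Jumonji family protein without demethylase activity that helps to bring PRC2 to its targets, had 49.9, 51.8 and 56.2 CPM in the vector samples and 64.3, 73.6 and 59.0 CPM in the circEZH2_005 samples. No vector sample reached the lowest circEZH2_005 sample, which was sample 3. The log2 fold change was 0.32 (SE 0.10, 95% interval 0.08 to 0.55, adjusted p = 0.111 from edgeR). On FPKM the same gene had levels of 4.68, 4.99 and 5.36 with the vector and of 6.17, 6.31 and 5.15 with circEZH2_005, where sample 3 fell within the vector range. Jarid2 to Ezh2 was 0.528 ± 0.043 in vector samples and 0.721 ± 0.121 in circEZH2_005 samples, without overlap and without a test. Aebp2, a zinc finger protein that stabilizes PRC2, had 69.1, 77.7 and 67.0 CPM against 77.6, 74.0 and 76.5 CPM, a log2 fold change of 0.09 (SE 0.08).

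**Figure D3:**
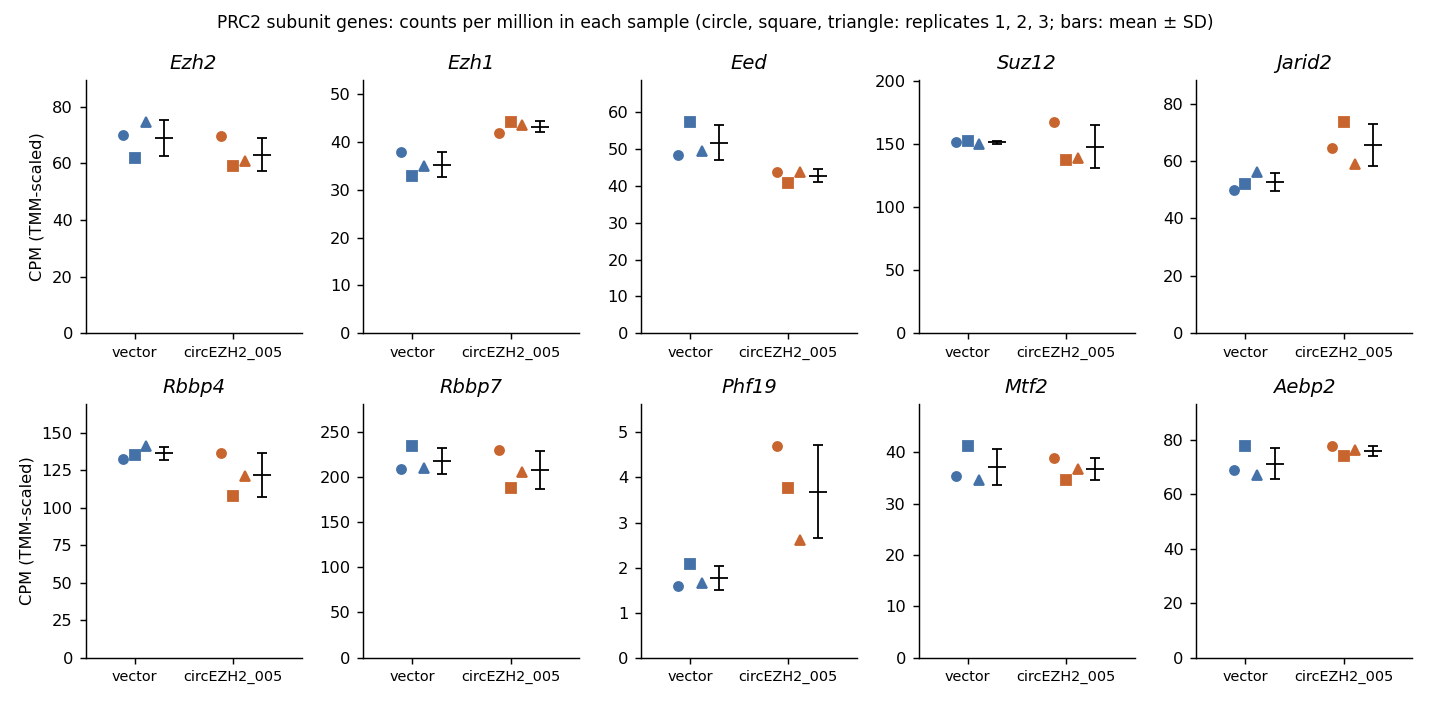
TMM-scaled CPM of each subunit gene in each sample (circle, square and triangle for replicates 1, 2 and 3), with the group mean ± SD beside the points (n = 3) and every axis starting at 0. Ezh1, Jarid2 and Phf19 lie higher and Eed lies lower in every circEZH2_005 sample than in any vector sample, and the groups of the other 6 genes overlap.

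Other ratios within a sample did not separate the groups. Eed to Ezh2 was 1.33 ± 0.25 in vector samples and 1.19 ± 0.08 in circEZH2_005 samples, and Suz12 to Ezh2 was 2.99 ± 0.31 and 3.17 ± 0.08 (FPKM ratios, SD, n = 3). Rbbp7 to Rbbp4 was 4.79 ± 0.37 and 5.14 ± 0.10, and Jarid2 to Aebp2 was 0.753 ± 0.089 and 0.877 ± 0.117. The sum of the PRC2.2 subunits Jarid2 and Aebp2 over that of the PRC2.1 subunits Mtf2 and Phf19 was 1.85 ± 0.12 in vector samples and 2.02 ± 0.17 in circEZH2_005 samples, with overlap. This ratio leaves out Phf1 and the other PRC2.1 genes that are not members, so it does not compare the subtypes as a whole.

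**Figure D4:**
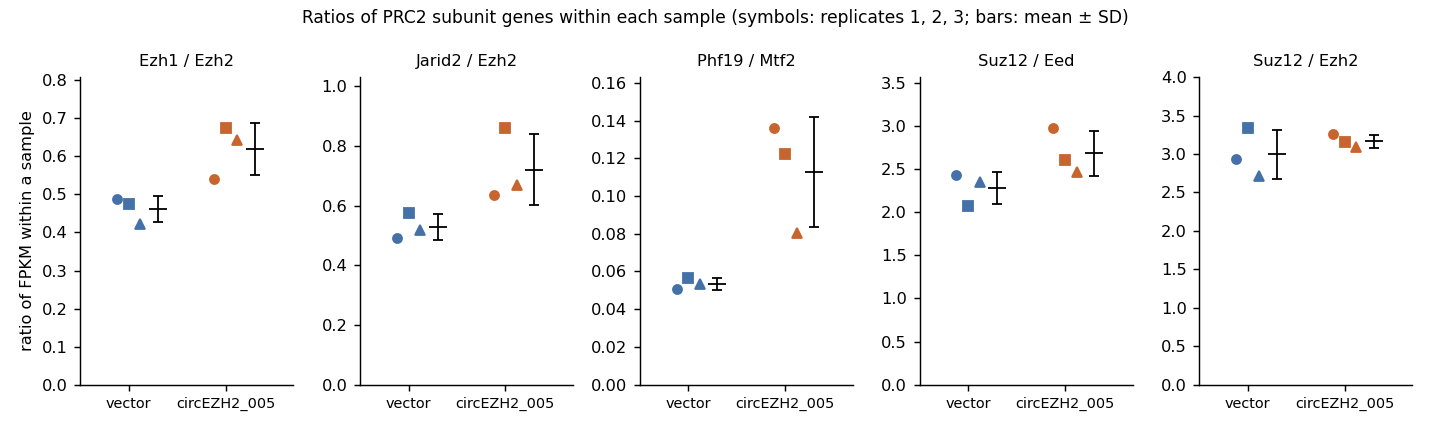
Ratios of FPKM between subunit genes within each sample (circle, square and triangle for replicates 1, 2 and 3), with the mean ± SD of each group (n = 3) and axes starting at 0. Ezh1 to Ezh2, Jarid2 to Ezh2, Phf19 to Mtf2 and Suz12 to Eed are higher in every circEZH2_005 sample than in any vector sample. Suz12 to Ezh2 overlaps. Only Ezh1 to Ezh2 was tested, and the share of other gene pairs that keep the groups apart was not computed.

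The remaining accessory subunits were examined as a list of 6 genes. Of these, 0 of 6 passed the adjusted test, beside 3.67% of all genes tested. Their median log2 fold change was -0.14, beside 2.2e-05 over all genes tested. Phf1, the third Polycomb-like gene, had 14.1, 12.9 and 13.6 CPM in the vector samples and 13.9, 24.5 and 20.7 CPM in the circEZH2_005 samples (log2 fold change 0.54, SE 0.20, adjusted p = 0.153 from edgeR). Lcorl, whose locus encodes a PRC2.1 protein, had 72.5, 74.4 and 68.9 CPM against 61.8, 61.9 and 60.3 CPM. Its log2 fold change was -0.23 (SE 0.07, adjusted p = 0.103 from edgeR). Lcorl was the only gene of the list whose groups did not overlap, and 14.2% of all genes tested were lower in the same way. Its relative Lcor had a log2 fold change of -0.19 (SE 0.11). Epop, a PRC2.1 protein that binds elongin, was low, at 0.641 to 1.77 CPM, with a log2 fold change of -0.57 (SE 0.34). The elongin genes Elob (0.06, SE 0.08) and Eloc (-0.09, SE 0.10) lay close to 0 on that scale.

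The enzymes that act beside or against PRC2 gave few calls, where 3.67% of all genes tested were called. Of 23 subunit genes of PRC1, the complex that binds the PRC2 mark and ubiquitinates histone H2A, 0 passed the test (median log2 fold change -0.08). The demethylases of lysine 27, Kdm6a (log2 fold change 0.10, SE 0.10) and Kdm6b (0.21, SE 0.16), did not pass either. Of 14 methyltransferase and partner genes for lysines 4 and 36, 0 passed (median -0.05). Among 17 partners of Rbbp4 and Rbbp7 in the NuRD, Sin3 and CAF-1 complexes, 1 was higher and 0 were lower (median 0.09). The called gene was Mta3, a NuRD subunit, at a log2 fold change of 0.40 (adjusted p = 0.0349 from edgeR), a call that was kept without vector sample 2 and lost without any other sample (adjusted p between 0.0539 and 0.165). The 17 genes summed to between 1222 and 1254 CPM in vector samples and between 1320 and 1343 CPM in circEZH2_005 samples, and 6 of 17 were higher in every circEZH2_005 sample than in any vector sample while 2 of 17, Hdac2 and Mbd3, were lower, beside 16.4% and 14.2% of all genes tested. Of the 23 PRC1 genes, 3 were apart in the same way as higher and 4 as lower. Of the 14 genes for lysines 4 and 36, 1 was apart as higher and 3 as lower.

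DNA methylation genes were compared because PRC2 and DNA methylation often mark different promoters. Of 7 genes, 0 passed the adjusted test, beside 3.67% of all genes tested, and the median log2 fold change was 0.16. Of the 7, 3 were higher in every circEZH2_005 sample than in any vector sample and 0 were lower, beside 16.4% and 14.2% of all genes tested. Tet1, which oxidises methylcytosine, had 0.649, 0.763 and 0.792 CPM in the vector samples and 1.64, 1.42 and 1.56 CPM in the circEZH2_005 samples (log2 fold change 1.07, SE 0.26, adjusted p = 0.0612 from edgeR). The groups of Tet1 were well apart at a low level. Its relatives Tet2 (log2 fold change 0.20, SE 0.10) and Tet3 (0.02, SE 0.08) were nearer to 0. The maintenance enzyme Dnmt1 (0.16, SE 0.11) and its partner Uhrf1 (0.23, SE 0.13) were highest in circEZH2_005 sample 1. The de novo enzymes Dnmt3a and Dnmt3b had log2 fold changes of 0.05 (SE 0.07) and -0.20 (SE 0.20).

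Genes known as Polycomb targets in other tissues gave a single call. Of 17 such genes outside the Hox clusters, 15 were listed, 12 were tested, 0 were higher and 1 was lower (median log2 fold change 0.01). Of all genes tested, 2.69% were called as higher and 0.986% as lower. On CPM, 4 of the 12 were higher in every circEZH2_005 sample than in any vector sample and 2 were lower. Of all genes tested, 16.4% and 14.2% were. The gene called as lower was Sfrp5, a secreted inhibitor of Wnt signalling, with 1.60, 1.73 and 2.21 CPM in the vector samples and 0.365, 0.551 and 0.628 CPM in the circEZH2_005 samples. Its log2 fold change was -1.84 (SE 0.32, adjusted p = 0.0313 from edgeR), and the groups did not overlap. The call was lost without vector sample 1 or 3 or circEZH2_005 sample 2 or 3 (adjusted p between 0.0609 and 0.133 from edgeR). Cdkn2a, the cell cycle inhibitor best known as a PRC2 target, was under the count filter in these cells, at 0 to 0.335 CPM. Of 26 Hox genes listed, 13 were tested and 0 passed (median 0.16), and all Hox genes together summed to between 5.97 and 13.8 CPM. The groups of 1 of the 13 were apart as higher and those of 2 as lower. Hoxb7, Hoxb9 and other Hoxb genes were among those above 0 on the log2 scale and the tested Hoxa genes, apart from Hoxa7, among those below it, without a call in either direction.

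Genes tied to cell division, in which Ezh2 is commonly expressed with the cycle, gave no call, where 3.67% of all genes tested were called. Of 26 proliferation genes 0 passed the test, with a median log2 fold change of 0.03, and they summed to between 2457 and 2786 CPM in vector samples and between 2361 and 3071 CPM in circEZH2_005 samples. Of 13 E2F and Rb family genes, which control that programme, 0 passed (median 0.05). Of these, 4 were higher in every circEZH2_005 sample than in any vector sample and 1 was lower, beside 16.4% and 14.2% of all genes tested. Of the 26 proliferation genes, 1 was apart as higher and 0 as lower.

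**Figure D5:**
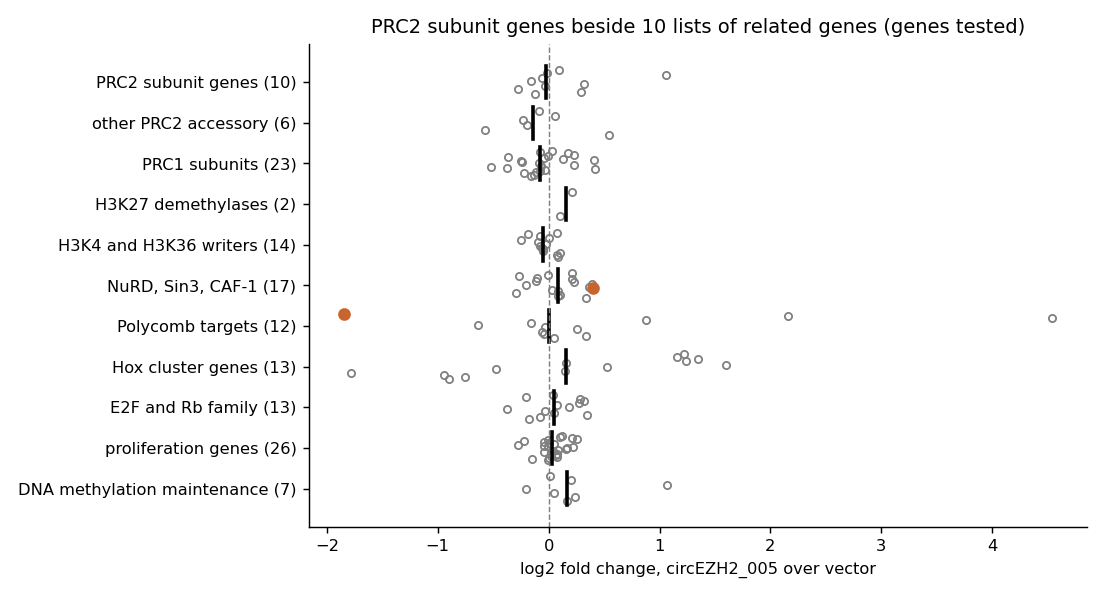
Log2 fold change of each tested gene, circEZH2_005 over vector, for the 10 PRC2 subunit genes and 10 lists of related genes, with the number tested in brackets and the median as a black bar. Filled points passed an adjusted p-value of 0.05 (Mta3 higher and Sfrp5 lower), open points did not, and the 10 subunit genes hold none that passed.

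The genes whose log2 CPM followed Ezh2 most closely over the 6 samples were not PRC2 genes. Out of 11601 genes whose mean reached 1 FPKM, they were Csf2ra (Pearson's r = 0.980), a cytokine receptor chain, the kinase Map2k5 (0.980), the Elongator subunit Elp6 (0.979), Tinag (0.977) and Gm2436 (0.975). With 6 samples, 23 genes reached an r of 0.95 or more, and 2 of these 5 were again among the 5 closest on log2(FPKM + 1). Of the subunit genes compared, Rbbp4 (0.80, rank 445) and Suz12 (0.63, rank 1409) were closest to Ezh2. Rbbp7 (0.31) and Eed (0.24) followed, and Mtf2 (-0.20), Ezh1 (-0.40), Jarid2 (-0.42) and Aebp2 (-0.65) ran the other way. Phf19, whose mean was under 1 FPKM, was not compared. The median r of the 26 proliferation genes with Ezh2 was 0.224, beside 0.018 over all genes compared. All these points share the libraries and their scaling, so they describe 6 samples.

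The genome around the members bears on how far their counts can be read, since no source used here says that reads were counted by strand. Ezh2 lies on chromosome 6 (47530139 to 47595341, GRCm38, minus strand) and overlaps Gm26625 and Gm44282 on the other strand, of which Gm26625 covers 2.61% of its exon bases. Ezh1 lies on chromosome 11 (101191115 to 101226463, minus strand) and overlaps no annotated gene. Eed, on chromosome 7 (89954654 to 89980983, minus strand), shares 6.82% of its exon bases with E230029C05Rik on the other strand, which had between 43 and 134 counts, and overlaps Gm45120 without a shared exon base. Phf19, on chromosome 2 (34893757 to 34914026, minus strand), overlaps Gm13448 and shares 0 exon bases with it, although Gm13448 had 17 counts in circEZH2_005 sample 1 and 0 in the other 5 samples. Jarid2, on chromosome 13 (44729474 to 44921643, plus strand), contains the small RNA gene Gm22213 and shares 0 exon bases with it.

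The other members lie beside or across further genes. Rbbp7 (X chromosome, 162760402 to 162779092, plus strand) shares 5.98% of its exon bases with Txlng, which had 3247, 2220 and 3078 counts in the vector samples and 1892, 1729 and 2125 in the circEZH2_005 samples. Rbbp4 (chromosome 4, 129307100 to 129335370, minus strand) shares 8.94% with Sync and 9.10% with Gm26722, and Suz12 (chromosome 11, 79993106 to 80034123, plus strand) shares 3.60% with Gm26563. Mtf2 (chromosome 5, 108065674 to 108109004, plus strand) shares 6.93% with Tmed5, which had between 3704 and 5045 counts. Aebp2 (chromosome 6, 140622663 to 140678472, plus strand) overlaps no annotated gene. For Mtf2 and Aebp2 the ends given by the table differ from those of GENCODE M21, and for the other 8 members they are the same.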

How the data were processed

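Polyadenylated RNA of 6 samples (3 vector, 3 circEZH2_005) was sequenced. For every gene the authors deposited a raw count and an FPKM value per sample. The submitters' processing notes name cutadapt 1.9, HISAT2 2.0.4, StringTie 1.3.4d, DESeq2 and mm10, without their roles; strand and filters are not given in the sources used here. Vector is the only control group, so the columns named as negative controls were read as its samples, and 0 sample columns were left unused.

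Counts were filtered with filterByExpr, which all 10 members passed, scaled with TMM (factors 0.931 to 1.04) and tested by quasi-likelihood in edgeR 4.0.16 (R 4.3.3), with Benjamini-Hochberg adjustment over 18348 genes. Dividing a log2 fold change by the square root of its F statistic gave the standard error. Counts of 71506487 or more per sample leave counting error small except for Phf19. Alternatives used DESeq2 1.42.0, limma 3.58.1 on FPKM, another scaling, no filter, a replicate block and each sample left out. Code was tested on simulated data. Of the gene identifiers, 28678 occur in GENCODE M21, whose transcripts gave the exon sequences. The members, the lists, the comparisons and the naming rule (every member, genes that overlap a member, called extremes of each list, every gene of lists of at most 7, and the 5 genes closest to Ezh2) were chosen with earlier results of these data known. For lists of cell type markers, only called genes were named by the rule, and not every gene. The values of Hoxa, Hoxb, Cdkn2a and the markers that did not pass were chosen after their values were seen.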

Additional observations from a re-analysis of the deposited data

How the results depend on the processing

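Of 118 values of a member's log2 fold change under an alternative, 112 kept direction and side of the threshold, 5 changed sign and 1 passed the threshold. The sign changed for values near 0 with a replicate left out: Suz12 ranged from -0.135 to 0.0164 (0.0083 and 0.0164 without circEZH2_005 replicate 3 or 2), Rbbp7 from -0.143 to 0.0031 (the latter without circEZH2_005 replicate 2), and Mtf2 from -0.0642 to 0.0676 (0.0676 without vector replicate 2, 0.0256 without circEZH2_005 replicate 2). For the 9 called genes named from the lists, 42 of 106 values under an alternative kept the call, 64 lost it and 0 changed sign. DESeq2 called 1 member (Phf19, adjusted p = 0.00762) in place of 0, and Phf19, under 0.5 FPKM, was not tested by limma. The members called stayed at 0 when any replicate was left out, with a range of 0 to 0. Same-numbered samples did not deviate together (correlations -0.14, -0.02 and 0.04), so the numbers are not taken to pair them; the replicate block gave 0 members and 277 genes called instead of 674. Genes called numbered 169 with no filter, 2289 with DESeq2 and 289 with limma on log2(FPKM + 0.1). With a replicate left out they numbered between 28 and 1432. They were 28 and 33 without vector replicate 1 or 3, and 1432 without vector replicate 2. Without circEZH2_005 replicate 1, 2 or 3 they were 681, 68 and 169. The cause was not tested. The Ezh1 to Ezh2 difference, circEZH2_005 minus vector, was 0.158 and ranged from 0.131 to 0.197 with a replicate left out, an alternative chosen after seeing the data, as was the use of FPKM for the overlap of groups. Of the 5 genes closest to Ezh2, 2 remained on log2(FPKM + 1). On FPKM the median log2 fold change of all genes shifted to -0.07 and -0.09, and the 9 members tested there all had lower values than in edgeR. With 3 samples a group, the spread between samples more than depth limits these values.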

Other observations

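Phc3, a PRC1 subunit gene chosen after its values were seen, split the samples in a way that crossed the groups. It had 53.5 CPM in vector sample 1 and 58.4 CPM in circEZH2_005 sample 3, while the other 4 samples lay between 15.3 and 17.4 CPM. The counts behind them were 3876 and 4185 against 1159 to 1382. Of 11602 genes whose mean reached 1 FPKM, 4 were over 2-fold higher in both of these samples than in each of the other 4, Phc3 included. The log2 fold change between the groups was 0.13 (SE 0.64, adjusted p = 0.928 from edgeR), and both groups were split.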
